A study of Mus musculus with 2 samples.

Results

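The mitochondrial ribosome was followed here through the genes whose symbol begins with Mrpl or Mrps and a digit. The deposited table listed 82 such rows among 19829 genes. Of these, 78 were protein genes and 4 were pseudogenes (*Mrpl23-ps1*, *Mrpl48-ps*, *Mrps36-ps1* and *Mrps36-ps2*). Within the protein genes, 51 encode large subunit proteins and 26 encode small subunit proteins. *Mrps36* carries the family name but is known as a subunit of the 2-oxoglutarate dehydrogenase complex, and it was counted with neither subunit.

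Mitochondria make a small set of respiratory chain proteins on ribosomes of their own. The ribosomal RNAs and the messages come from mitochondrial DNA, whereas every protein of these ribosomes is encoded in the nucleus, made in the cytosol and imported. Some of the proteins have a counterpart in the bacterial ribosome and others were gained in mitochondria. Proximal tubule cells are rich in mitochondria and depend on oxidative metabolism for solute transport.

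Messenger RNA of whole kidneys was sequenced in 1 library per group. WT+AKI came from wild-type mice and TG+AKI from mice that overexpress *Inmt* (indolethylamine N-methyltransferase) in proximal tubules. Per the study's methods, both groups were male mice on a C57BL/6 background, received voclosporin, a calcineurin inhibitor, at 30 mg/kg per day for 2 weeks between 8 and 10 weeks of age, and underwent 30 min of bilateral renal ischemia with reperfusion at 14 weeks. The time of harvest after ischemia is given as 24 h in one place and 48 h in another. The treatment field of the labels names no treatment, and the title of the TG+AKI sample also calls the animals conditional knockouts. No source used here says how many animals a library was made from. The comparison therefore asks how 2 libraries from injured kidneys that differ in *Inmt* differ in mitochondrial ribosomal transcripts, without sham-operated or untreated libraries and without replicates.

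Both libraries were deep, with 38542764 reads in WT+AKI against 36427421 in TG+AKI. The normalized value of *Inmt* was 10.4 in the WT+AKI library and 402.8 in the TG+AKI library, in the direction of the transgene named in the labels. All 10 listed proximal tubule markers were higher in TG+AKI, and their summed value went from 5175 to 18379. Other tubule segments were higher too: distal convoluted tubule markers summed to 193.9 and 687.3, those of the thick ascending limb to 1966 and 3286, and those of the collecting duct to 336.6 and 444.7, with 5 of 6 higher. All 9 injured-tubule markers were lower, with a sum of 13292 in WT+AKI against 902.1 in TG+AKI, and 8 of 9 macrophage and myeloid markers were lower, with sums of 205.5 and 88.5. Podocyte markers summed to 422.9 and 453.8, and no marker with a row was at the floor of 3 reads. These shifts ran alongside every result below, and their part in it was not tested. In whole kidney, fewer cells of a type and less RNA per cell cannot be told apart.

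Values are reads scaled by the authors, where 1 read was worth 0.0236 in WT+AKI against 0.0302 in TG+AKI. A gene was compared if either library reached 10, which 10294 did, and comparisons were made as log2(value + 1), which understates the change of low genes. The interval in brackets after a ratio is the 95% Clopper-Pearson interval from the reads. It covers counting error only, since PCR reads without molecular identifiers are not independent molecules. All adjusted p-values come from a two-sided exact binomial test on the reads with Benjamini-Hochberg adjustment over the 10294 genes, and they compare the 2 libraries and not the conditions.

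All 78 protein genes passed the filter. Their values ran from 12.5 to 94.8 in WT+AKI, with a median of 27.9, and from 13.6 to 152.7 in TG+AKI, with a median of 31.4. Each rested on at least 451 reads, and the median width of the interval on either side of a ratio was 8.37%. The order of the genes was much alike in both libraries, with a Spearman's rho of 0.84 across the 78 genes, which share both libraries and are not independent replicates.

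Most mitochondrial ribosomal protein genes were slightly higher in TG+AKI, and the family spanned a narrow band. Of the 78 genes, 64 were higher and 14 were lower, against 5274 higher and 5020 lower of the 10294 compared genes. The median log2 fold change was 0.20, with the middle 50% of genes between 0.06 and 0.35, a spread of 0.29. Over all compared genes the median was 0.01 and the middle 50% lay between −0.32 and 0.34, a spread of 0.66. The 7592 genes within the same range of levels had a median of 0.01 and a middle 50% of −0.29 to 0.30. A narrow band was not particular to the family. Among the related lists described below, the spread was 0.27 for cytosolic ribosomal proteins, 0.30 for the nuclear respiratory chain and 0.34 for translation factors. It was 0.70 for regulators of mitochondrial biogenesis. The median ratio of the family was 1.15, and 71 of 78 genes lay within 1.5-fold on the log2(value + 1) scale.

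The sign of this small shift depended on how the libraries were scaled. Scaling to equal totals lowered the median of all compared genes by 0.28, and then 28 of the 78 genes were higher and 50 lower. Of the 10364 genes compared under equal totals, 2982 were higher and 7382 lower. With a median ratio of 1 over abundant genes, 46 of the 78 were higher and 32 lower, against 3970 and 6343 of all compared genes. With equal totals outside the mitochondrially encoded mRNAs, 41 were higher and 37 lower, against 3874 and 6907. DESeq2 size factors gave 66 higher and 12 lower, against 5409 and 4877 of all compared genes. A scaling moves all genes of a library together, so the place of a gene relative to the median of all compared genes is nearly fixed. For this reason 64 of 78 genes lay above that median under each of these scalings and under the deposited one, and this count is no test of the shift. The directions given below are those of the deposited scaling.

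Few members passed a fold threshold. No member was at least 2-fold higher, against 5.74% of all compared genes, and 1 of 78, *Mrpl33*, was at least 2-fold lower, against 7.12%. At 1.5-fold, 5 members were higher (*Mrpl50*, *Mrps35*, *Mrpl12*, *Mrpl28* and *Mrpl4*) against 14.0% of all genes, and 2 were lower (*Mrpl33* and *Mrps18b*) against 14.3%. By the binomial test, 48 of 78 members were higher at an adjusted p under 0.05, against 41.4% of all genes, and 5 were lower (*Mrpl33*, *Mrps18b*, *Mrpl52*, *Mrpl57* and *Mrps17*), against 39.1%. Under equal totals this became 16 higher and 34 lower of the 78 members, against 2275 higher and 6544 lower of the 10364 genes compared there. The shares of members past each fold threshold were thus below those of all genes in both directions.

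**Figure D1:**
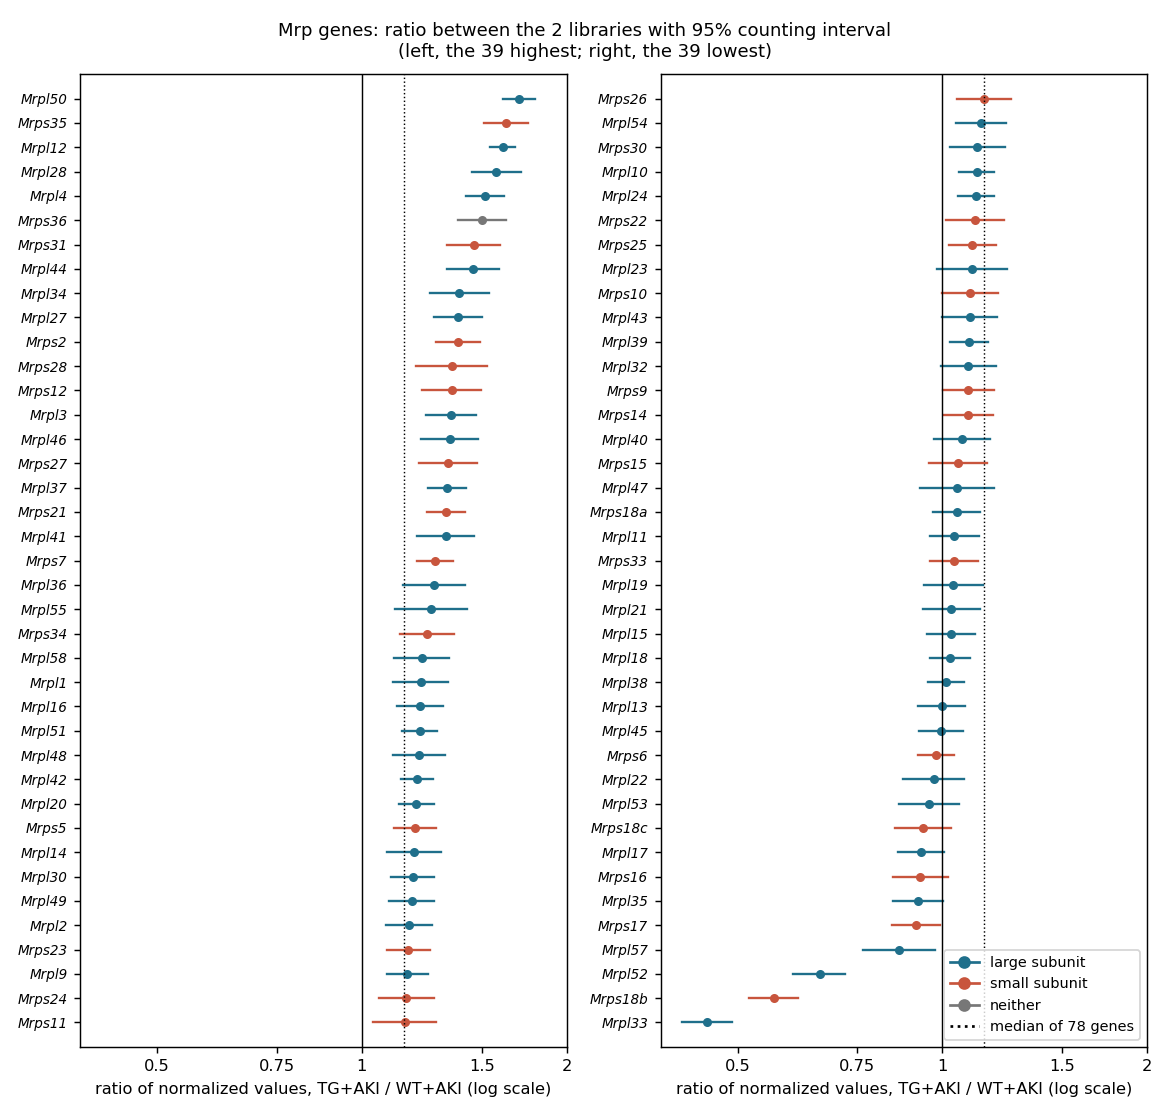
Ratio of the normalized value in TG+AKI to that in WT+AKI for each of the 78 Mrp protein genes, on a log axis. Points are ratios, bars are 95% counting intervals, colour marks the subunit, and the dotted line is the family median of 1.15. The left panel runs from 1.16 to 1.70, and *Mrpl52*, *Mrps18b* and *Mrpl33* stand apart at the bottom right.

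The members were not all displaced by the same amount. The intervals of 36 genes included the family median of 1.15, while 20 lay wholly above it and 22 wholly below it. Against a ratio of 1, 49 intervals lay above, 5 below and 24 included it. The spread among members was thus larger than the counting error of the reads, although the spread between animals is unknown here.

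The medians of the large and the small subunit were 0.18 and 0.20. In the large subunit, 42 genes were higher and 9 lower, and in the small subunit, 21 were higher and 5 lower. The 46 genes with a bacterial counterpart had a median of 0.18 and the 31 found only in mitochondria a median of 0.19. No test between these groups of genes was made.

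Among large subunit genes, *Mrpl50* had the largest ratio. It encodes a mitochondria-specific protein and lies on chromosome 4 (GRCm38, 49512596 to 49521093, minus strand). Its value was 57.2 in WT+AKI from 2425 reads and 97.4 in TG+AKI from 3224 reads, a ratio of 1.70 [1.61 to 1.80]. *Mrpl12* encodes the stalk protein that recruits translation factors to the ribosome. It had the highest value of the family in both libraries, 94.8 and 152.7, with a ratio of 1.61 [1.55 to 1.68]. The stalk partners did not share that size of difference: *Mrpl10*, the stalk base, had values of 54.9 and 61.7, a ratio of 1.12 [1.06 to 1.19], and *Mrpl11* had 30.3 and 31.6, a ratio of 1.04 [0.959 to 1.13].

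*Mrpl28*, whose product has a bacterial counterpart, had values of 24.3 and 38.3, a ratio of 1.58 [1.45 to 1.71]. *Mrpl4*, which encodes a protein lining the exit tunnel for the nascent chain, had 41.3 and 62.6, a ratio of 1.51 [1.42 to 1.62]. *Mrpl44*, whose product has a ribonuclease III-like fold, came next among the large subunit genes with 22.2 and 32.4, a ratio of 1.46. *Mrpl45*, which encodes a protein at the tunnel exit facing the inner membrane, had 38.5 and 38.3. *Mrpl58* encodes a release factor-like protein that frees stalled chains, and its values were 21.9 and 26.8, a ratio of 1.23 [1.12 to 1.34]. *Mrpl10*, *Mrpl11*, *Mrpl45* and *Mrpl58* were named after their values had been seen.

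In the small subunit, *Mrps35* had the largest ratio. This mitochondria-specific gene on chromosome 6 (147042764 to 147073991, plus strand) had values of 29.7 and 48.4, a ratio of 1.63 [1.51 to 1.75]. *Mrps31* had 21.3 and 31.01, a ratio of 1.46. *Mrps2* had 32.1 and 44.5, a ratio of 1.39. *Mrps12*, which encodes a protein of the decoding centre, had 18.2 and 24.7, a ratio of 1.35. *Mrps28*, with the lowest WT+AKI value of the family, had 12.5 and 16.9, a ratio of 1.36. In these 5 small subunit genes, as in the 5 large subunit genes with the largest ratios, the whole interval lay above 1.

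At the other end 3 genes were set apart from the rest. *Mrpl33* encodes a small large subunit protein with a bacterial counterpart, on chromosome 5 (31596935 to 31664384, plus strand). Its value was 51.1 in WT+AKI from 2165 reads and 23.0 in TG+AKI from 763 reads, which was 2.22-fold lower [2.04 to 2.41]. It had the highest WT+AKI level of the family per kilobase of transcript, 106.8, and 48.2 in TG+AKI. The coding sequence of *Mrpl33* is the shortest of the family, 195 bases.

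*Mrps18b* lies on chromosome 17 (35910379 to 35916389, minus strand) and encodes a mitochondria-specific small subunit protein. Its value was 43.5 in WT+AKI from 1844 reads and 24.6 in TG+AKI from 814 reads, or 1.77-fold lower [1.63 to 1.92]. *Mrpl52*, a mitochondria-specific large subunit gene on chromosome 14 (54426909 to 54429756, plus strand), had 35.2 and 23.3, or 1.52-fold lower [1.39 to 1.66] before the pseudocount. On the log2(value + 1) scale its difference of −0.58 fell just short of 1.5-fold. The next gene in order, *Mrpl57*, was at 15.8 and 13.6 with a ratio of 0.863 [0.764 to 0.974], so that a gap of 0.38 on the log2 scale separated the 3 genes from the other 75.

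A limit in how reads are assigned was measured for *Mrpl33* and *Mrps18b*. For *Mrpl33*, 21.1% of the 100-base words of its transcripts were shared with *Gm43809*, an overlapping gene on the same strand that had no row. For *Mrps18b*, 22.2% were shared with *Gm13552*, which had values of 7.97 and 4.26, and 30.5% of its exon bases were covered by *Gm16279* on the opposite strand. *Mrpl52* shared no words and had no such overlap. Whether the authors' counting used strand was not given in the sources used here.

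The remaining lower members had ratios between 0.863 and 1. *Mrps17* was at 34.2 and 31.3, a ratio of 0.914 [0.843 to 0.991] with an adjusted p of 0.035 in the exact binomial test. *Mrpl17* (35.7 and 33.2), *Mrpl35* (ratio 0.921) and *Mrps16* (25.6 and 23.8) had intervals that included 1. *Mrps6* stood at 57.8 and 56.6, a ratio of 0.979 [0.922 to 1.04], and 27.7% of its transcript words were shared with *Gm49711* and *Slc5a3*.

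The *Mrps18* genes are paralogs, and they did not differ alike. Their products occupy different sites, that of *Mrps18a* in the large subunit and those of *Mrps18b* and *Mrps18c* in the small subunit. *Mrps18a* had values of 32.1 and 33.8, a ratio of 1.05 [0.969 to 1.14], and was lower in TG+AKI with equal totals (−0.20 on the log2 scale). *Mrps18c* had 23.9 and 22.4, a ratio of 0.937 [0.851 to 1.03]. *Mrps18b*, at 0.565 [0.520 to 0.614], did not overlap either of them.

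**Figure D2:**
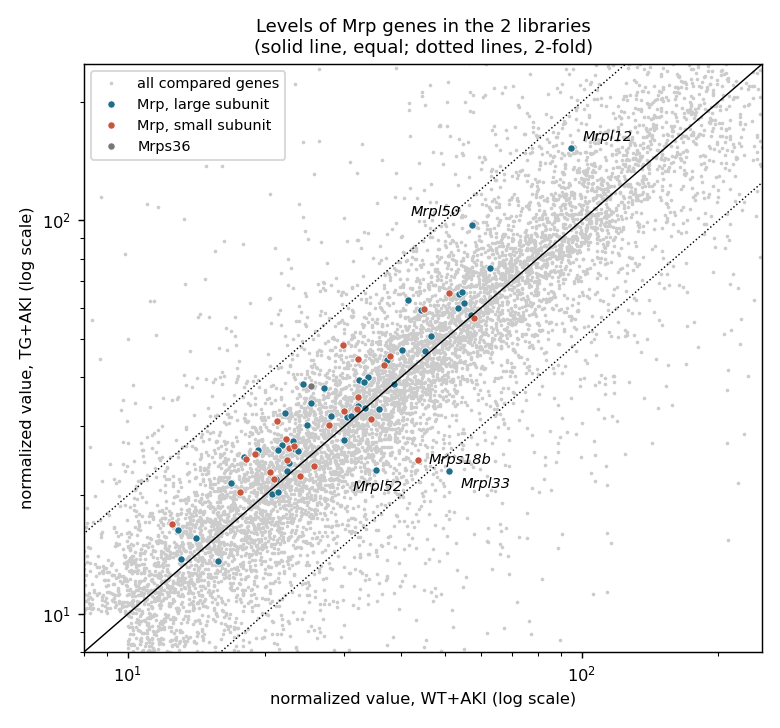
Normalized value in WT+AKI against that in TG+AKI on log axes, cropped to the range of the family. Grey points are all compared genes, coloured points the 78 Mrp genes by subunit, the solid line equality and the dotted lines a 2-fold difference. *Mrpl12* and *Mrpl50* lie towards the upper dotted line and *Mrpl33* lies beyond the lower dotted line.

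Levels between genes can be compared only per length. Per kilobase of transcript, the mean of both libraries ran from 3.99 to 107.0 over the family, with a median of 22.2. *Mrps21* was highest, at 91.9 in WT+AKI against 122.1 in TG+AKI. *Mrpl42* followed with 94.1 and 113.4, *Mrpl12* with 72.1 and 116.1, and *Mrpl20* with 71.4 and 85.8. *Mrpl33* came next, with most of its level in WT+AKI. By value rather than per length, *Mrps21* went from 44.8 to 59.6 (ratio 1.33), *Mrpl42* from 62.6 to 75.5 (1.21) and *Mrpl20* from 54.6 to 65.6 (1.20). With equal totals *Mrpl42* and *Mrpl20* were just below 0, at −0.0092 for *Mrpl20* and −0.0052 for *Mrpl42* on the log2 scale.

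*Mrps36*, the member outside the ribosome, had values of 25.3 and 38.0, a ratio of 1.502, and 19.1% of its transcript words were shared with its pseudogenes. The 4 pseudogenes were all below the filter. *Mrps36-ps1* had 62 reads and 112 reads, a ratio of 2.31 [1.68 to 3.21], and *Mrps36-ps2* had 21 and 35, a ratio of 2.13 [1.21 to 3.86]. *Mrpl23-ps1* had 42 reads in each library, a ratio of 1.28 [0.815 to 2.01], and *Mrpl48-ps* had 6 and 8, a ratio of 1.71 [0.519 to 5.97]. *Mrpl23* shared 74.4% of its words with *Mrpl23-ps1*, and its own values were 14.1 and 15.6.

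The difference between libraries was at most weakly correlated with the length, GC content or level of the members. Across the 78 genes, Spearman's rho of the log2 fold change was −0.07 with transcript length, 0.18 with coding length, 0.21 with GC content and 0.13 with level. The family is short, with a median coding length of 582 bases against 1404 over the 9941 protein-coding genes compared. Its median transcript GC content of 50.4% was close to the 50.2% over all compared genes with a reference transcript. The members are scattered over 17 chromosomes, with 11 on chromosome 11 and 8 on chromosome 17.

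Promoter sequences are shown for the 3 genes that stood apart below and for *Mrpl50* and *Mrpl12*, the largest ratio and the highest normalized value. Factors known to bind the promoters of genes for mitochondrial proteins include NRF1, the ETS factor GABP and YY1. Each sequence holds the 250 bases before the start in RefSeq (GRCm38.p6), written 5′ to 3′ on the strand of the gene. Capitals mark matches, on either strand, to CGCANGCG (NRF1), CCGGAAG (ETS), AAGATGG (YY1), GGGCGG (Sp1), CCAAT and TATAAA. The windows are chr5:31613701-31613950 (plus) for *Mrpl33*, whose annotation also holds transcripts that start further upstream, chr17:35916441-35916690 (minus) for *Mrps18b*, chr14:54426659-54426908 (plus) for *Mrpl52*, chr4:49521084-49521333 (minus) for *Mrpl50* and chr11:120484387-120484636 (plus) for *Mrpl12*.
Mrpl33: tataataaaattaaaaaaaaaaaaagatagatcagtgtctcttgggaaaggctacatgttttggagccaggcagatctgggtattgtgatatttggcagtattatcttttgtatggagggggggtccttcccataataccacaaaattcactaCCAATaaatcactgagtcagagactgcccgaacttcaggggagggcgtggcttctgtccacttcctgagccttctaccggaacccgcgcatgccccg
Mrps18b: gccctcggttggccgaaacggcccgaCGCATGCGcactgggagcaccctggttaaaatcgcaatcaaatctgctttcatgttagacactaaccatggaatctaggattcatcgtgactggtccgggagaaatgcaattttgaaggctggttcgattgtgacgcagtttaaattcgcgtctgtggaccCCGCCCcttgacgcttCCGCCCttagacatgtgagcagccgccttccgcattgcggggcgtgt
Mrpl52: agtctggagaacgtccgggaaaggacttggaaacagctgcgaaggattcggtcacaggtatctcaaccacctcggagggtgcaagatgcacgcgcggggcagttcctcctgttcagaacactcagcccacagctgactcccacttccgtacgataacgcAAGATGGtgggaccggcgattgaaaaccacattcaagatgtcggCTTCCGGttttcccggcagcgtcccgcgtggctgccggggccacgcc
Mrpl50: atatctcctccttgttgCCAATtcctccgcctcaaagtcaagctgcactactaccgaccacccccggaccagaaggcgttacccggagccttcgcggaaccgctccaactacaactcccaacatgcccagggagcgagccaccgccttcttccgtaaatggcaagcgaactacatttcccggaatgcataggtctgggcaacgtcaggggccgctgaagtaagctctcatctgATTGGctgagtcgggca
Mrpl12: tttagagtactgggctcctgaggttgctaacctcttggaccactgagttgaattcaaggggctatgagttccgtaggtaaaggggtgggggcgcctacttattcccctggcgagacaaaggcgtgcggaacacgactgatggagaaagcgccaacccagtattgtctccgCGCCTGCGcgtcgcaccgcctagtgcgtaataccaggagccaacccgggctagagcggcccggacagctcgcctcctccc

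With the first 50 transcribed bases included, all 3 lower genes held an ETS match. So did 26 of the 69 members with a window (37.7%) and 21.03% of all genes with one. The 3 genes were picked by their values and several motifs were searched, so the shared match is no test of a link. *Mrpl33* held CCAAT 97 bases before the start and an ETS match that began 3 bases before it and ran past it, which is why it is not in capitals. *Mrps18b* held an NRF1 match 224 bases before the start and Sp1 matches at 63 and 47 bases, and its ETS match lay after the start. *Mrpl52* held a YY1 match at 91 bases and an ETS match at 47 bases, with another ETS match after the start. *Mrpl50* held CCAAT at 233 bases and its reverse complement at 17 bases, and *Mrpl12* held an NRF1 match at 80 bases and another after the start. A match of this kind is a description of letters and not a bound site.

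Over windows that also included the first 50 transcribed bases, 69 of the 78 members had a sequence, and they were set beside the 8168 compared genes with one. An ETS match was present in 37.7% of members against 21.03% of all genes, an NRF1 match in 29.0% against 19.99%, and a YY1 match in 18.8% against 8.77%. Sp1 matches were less frequent in members, 49.3% against 70.6%. CCAAT (39.1% against 42.4%) and TATAAA (7.25% against 8.93%) were similar in both. Matches to different motifs may overlap in a window, and a gene with several start sites counted once.

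**Figure D3:**
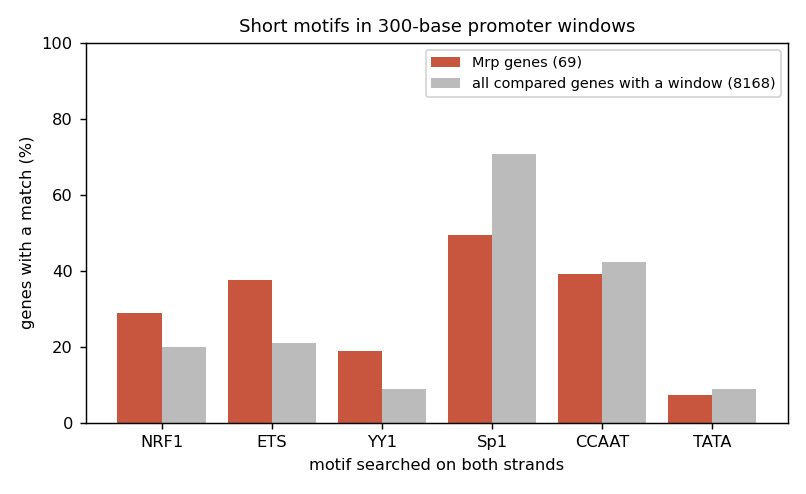
Share of genes, in percent, with at least 1 match to each motif in a window from 250 bases before to 50 bases after the start. Red bars are the 69 Mrp genes with a window and grey bars the 8168 compared genes with one. ETS, NRF1 and YY1 bars are higher for Mrp genes and the Sp1 bar is lower.

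Among members, the difference between libraries is given here with and without a match, as a description. The median log2 fold change was 0.10 in the 26 members with an ETS match and 0.22 in the 43 without. For NRF1 it was 0.18 and 0.21, for YY1 0.24 and 0.16, and for Sp1 0.17 and 0.22. The genes of the factors were also measured. *Nrf1* was at 20.03 and 20.3 (ratio 1.01), *Gabpa*, the DNA-binding subunit of GABP, at 47.5 and 55.4 (1.16), and *Yy1* at 76.9 and 75.7 (0.984).

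Head-to-head neighbours were frequent in the family. A gene on the opposite strand started within 1000 bp in 19 of 78 members (24.4%), against 1111 of 9941 protein-coding compared genes (11.2%). In 15 of these pairs the neighbour was also compared, and in 10 it differed in the same direction as the member under the deposited scaling. Of all 10294 compared genes, 5274 were higher and 5020 lower. Many unlinked pairs would thus share a direction, and the count is no test of a link within pairs. Spearman's rho between the log2 fold changes was 0.49 over the 15 pairs, which share both libraries.

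A lower member and its neighbour had similar ratios. *Mrps18b* and *Ppp1r10*, which encodes a regulatory subunit of protein phosphatase 1, start 45 bp apart on opposite strands. *Ppp1r10* had values of 69.7 and 41.4, a ratio of 0.594 [0.557 to 0.633], and this interval overlapped that of *Mrps18b*. *Mrps12* and *Sars2*, the mitochondrial seryl-tRNA synthetase gene, start 172 bp apart, and *Sars2* had 8.54 and 11.3, a ratio of 1.32 beside 1.35. *Mrps27* (1.34) was paired with *Ptcd2* (1.404), and *Mrpl36* (1.27) with the complex I gene *Ndufs6* (1.25).

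Other pairs differed more from each other. *Mrpl50*, at 1.70, was paired with *Zfp189*, at 0.974 [0.844 to 1.12]. *Mrpl30* had a ratio of 1.19 and its neighbour *Mitd1* 0.601. *Mrpl49* had 1.18 and *Fau*, which encodes a cytosolic ribosomal protein, 0.934. *Mrpl37* had 1.33 and *Cyb5rl* 2.46. The pairs were selected by position alone, and the examples were named after their values had been seen.

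**Figure D4:**
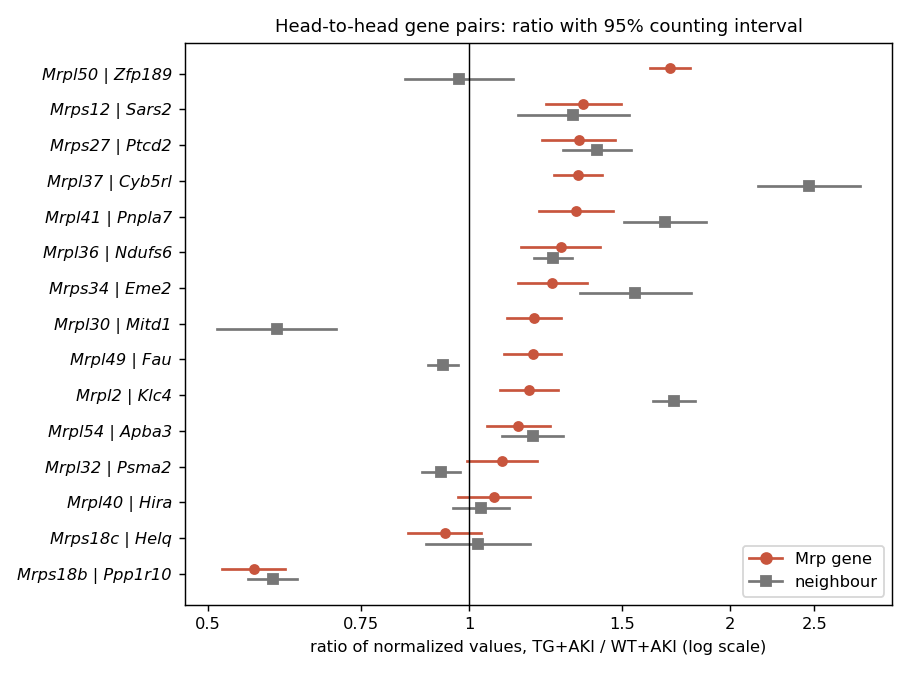
Ratio of TG+AKI to WT+AKI on a log axis for the 15 head-to-head pairs in which both genes were compared. Red circles are Mrp genes, grey squares their neighbours, and bars 95% counting intervals. *Mrps18b* and *Ppp1r10* sit together near 0.6, whereas *Mrpl50* and *Zfp189* lie apart.

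The other components of mitochondrial translation lay on the same side as the Mrp genes. Of 5 mitoribosome proteins without an Mrp symbol, 4 were higher and none reached 1.5-fold. Of all 10294 compared genes, 5274 were higher and 14.0% were at least 1.5-fold higher. *Gadd45gip1*, a large subunit protein, had values of 19.4 and 27.0, a ratio of 1.39. *Dap3*, a GTP-binding protein of the small subunit, had 42.7 and 59.0, a ratio of 1.38, and *Ptcd3*, an RNA-binding protein of the small subunit, had 34.6 and 46.6, a ratio of 1.35. The exception was *Chchd1*, also of the small subunit and named after its values had been seen, at 38.2 and 29.5, a ratio of 0.773 [0.713 to 0.837].

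Of 25 listed genes for ribosome assembly and ribosomal RNA modification, 18 were compared, with 16 higher, 2 lower, and a median of 0.25. *Noa1*, a GTPase of ribosome assembly, went from 10.4 to 20.9, a ratio of 2.004. It was the 1 gene of the 18 past 1.5-fold, against 14.0% of all compared genes at least 1.5-fold higher. *Fastkd2*, an RNA-binding protein, had 19.6 and 29.2 (ratio 1.49), and *Mtg2*, a GTPase of the large subunit, 13.4 and 19.6 (ratio 1.47). Of the 18 listed genes for mitochondrial transcription and RNA processing, 14 were compared and 13 were higher, with a median of 0.20. *Tefm*, the transcription elongation factor, had 10.5 and 16.4, a ratio of 1.56. *Hsd17b10* and *Prorp*, subunits of the mitochondrial ribonuclease P, had 62.9 and 85.7 and 11.7 and 15.9, both with a ratio of 1.36. With equal totals the medians of both lists fell below 0, at −0.01 and −0.06.

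Translation factors and tRNA synthetases showed larger differences than the ribosomal proteins. Over all 10294 compared genes, 5274 were higher and 14.0% were at least 1.5-fold higher. Of 16 translation factors, 15 were compared, 14 were higher and 8 reached 1.5-fold, with a median of 0.64. *Gfm1*, the elongation factor that moves the ribosome along the message, went from 67.6 to 131.1, a ratio of 1.94. *Mtrf1*, a release factor, had 5.54 and 10.3 (ratio 1.86), and *Guf1*, a back-translocating GTPase, 20.7 and 34.3 (ratio 1.66). Of 16 compared mitochondrial aminoacyl-tRNA synthetases, 15 were higher and 4 reached 1.5-fold, with a median of 0.45. *Fars2* went from 18.8 to 39.04, a ratio of 2.07, *Yars2* from 13.0 to 21.6 (1.66) and *Cars2* from 14.4 to 23.3 (1.61).

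The messages read by these ribosomes differed most, and nuclear respiratory chain genes less. All 13 mitochondrially encoded mRNAs were higher and 12 reached 1.5-fold, with a median of 0.90, against 14.0% of all compared genes at least 1.5-fold higher. *ND3* went from 981.3 to 2616, *ND4* from 7700 to 16316 and *CYTB* from 11527 to 24119, with ratios of 2.67, 2.12 and 2.09. Of the 74 nuclear respiratory chain genes, 71 were higher and 19 reached 1.5-fold, with a median of 0.43, beside the same 14.0% of all compared genes. *Cyc1*, which encodes cytochrome c1, went from 240.6 to 479.2, *Sdhb* of complex II from 153.5 to 301.7 and *Ndufs1* of complex I from 162.6 to 316.5. The medians of translation factors, synthetases, mitochondrial mRNAs and respiratory chain genes stayed above 0 with equal totals, at 0.33, 0.19, 0.63 and 0.16. The proximal tubule markers given above were higher in the same library, with 10 of 10 past 1.5-fold.

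Cytosolic ribosomal protein genes lay on the opposite side. Of 79 genes, 78 were lower and 17 were at least 1.5-fold lower, with a median of −0.44. Of all 10294 compared genes, 5020 were lower and 14.3% were at least 1.5-fold lower. *Rpl12* went from 221.7 to 116.6, or 1.90-fold lower. *Rps12* had 247.5 and 138.8 (1.78-fold lower) and *Rpl36a* 165.7 and 93.1 (1.78-fold lower). The median of the Mrp genes was 0.64 above that of the cytosolic ribosomal protein genes and 0.23 below that of the nuclear respiratory chain genes. Only 3 of 78 Mrp genes fell below the cytosolic ribosomal median and 11 lay above the respiratory chain median. Over the alternatives the difference from the cytosolic ribosomal median ranged from 0.56 to 0.71 and that from the respiratory chain median from −0.27 to −0.18. A rescaling moves both lists together and leaves such differences nearly fixed, so the scalings among the alternatives were no test of them.

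**Figure D5:**
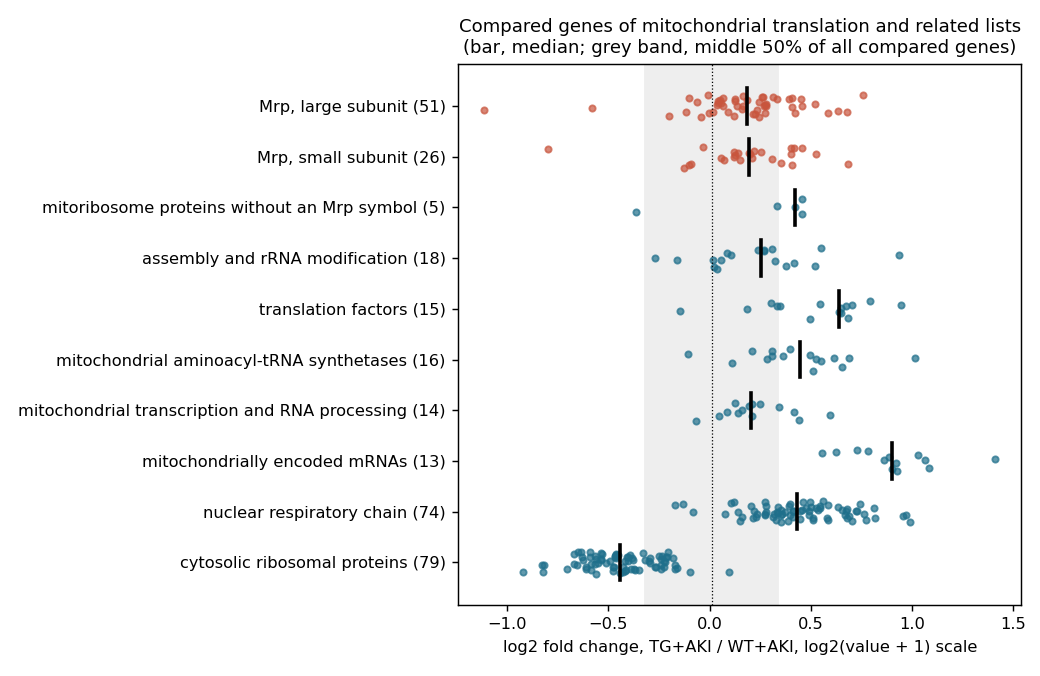
Log2 fold change (TG+AKI over WT+AKI, log2(value + 1) scale) of each compared gene in the Mrp subunits and in the related lists, with the number of genes in brackets. Points are genes, black bars medians, the dotted line the median of all compared genes and the grey band their middle 50%. Mrp medians of 0.18 and 0.20 lie between that of cytosolic ribosomal proteins, −0.44, and that of the respiratory chain, 0.43.

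Sums of reads gave the same order without any scaling between libraries. For each 100 reads on cytosolic ribosomal protein genes there were 12.1 reads on Mrp genes in WT+AKI against 19.0 in TG+AKI, a ratio of 1.57 [1.56 to 1.59]. For each 100 reads on nuclear respiratory chain genes there were 18.5 and 14.7, a ratio of 0.792 [0.785 to 0.800]. For each 100 reads on mitochondrially encoded mRNAs there were 2.07 and 1.38, a ratio of 0.669 [0.664 to 0.675]. These intervals use a normal approximation to the log of the read sums and cover counting error only.

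As a share of all reads the family was slightly smaller in TG+AKI. Mrp genes took 0.272% [0.270 to 0.274] of the reads in WT+AKI against 0.262% [0.260 to 0.263] in TG+AKI. Mitochondrially encoded mRNAs took 13.2% and 18.9% of the same reads. With these left out of the total, the Mrp share was 0.313% [0.312 to 0.315] in WT+AKI against 0.323% [0.321 to 0.325] in TG+AKI. The direction of the share thus turned with the denominator.

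Regulators known to act on mitochondrial genes lay on both sides. Of 12, 8 were higher and 4 lower, with a median of 0.12, against 5274 higher and 5020 lower of the 10294 compared genes. With equal totals 4 were higher and 8 lower, against 2982 and 7382 of the 10364 genes compared there. *Myc*, a transcription factor of growth, went from 35.99 to 4.86, or 7.40-fold lower [6.29 to 8.76]. *Pprc1*, a coactivator of the PGC-1 family induced by growth signals, went from 32.3 to 14.9, or 2.16-fold lower [1.95 to 2.40]. *Esrrb*, an estrogen-related receptor, went from 11.6 to 29.3, a ratio of 2.52 [2.26 to 2.81]. *Ppargc1a*, which encodes PGC-1alpha, a coactivator of mitochondrial biogenesis, was at 53.5 and 106.3. *Nrf1*, *Gabpa*, *Yy1* and *Ppargc1a* were named after their values had been seen.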

How the data were processed

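Polyadenylated RNA of whole kidneys was sequenced in 1 library per group (TruSeq Stranded mRNA kit, 100-base reads), and groups were taken from the library names. Per the labels and methods, the authors used STAR (2.7.3a) for alignment to mm10, HTSeq for counting and DESeq2 for normalization. The gene annotation and strand setting are not given in the sources used here. The deposited table holds 1 normalized signal value per gene and library. Dividing by the smallest value of a column gave whole counts (100% within 0.01). The deposited scaling equalled the TMM factors of edgeR (4.0.16) on these counts, 1.10 and 0.909. DESeq2 (1.42.0) size factors were 1.14 and 0.879. These include depth, whereas TMM factors multiply the read totals, so the pairs are on different scales. A value of 10 stands for 424.0 and 331.2 reads, so the filter is strict.

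The members and gene lists were chosen with earlier results of these data known. Genes were compared on log2(value + 1) after a filter of 10, with ratios, exact intervals and the exact binomial test as given above, in Python 3.11.15 with numpy 2.4.6, scipy 1.17.1 and pandas 2.3.3. With 1 library per group there is no test of the conditions, and no p-value for them is given. The binomial test was adjusted over 10294 genes. Scripts were tested on simulated data. Named genes were every Mrp gene past 2-fold, the 5 highest and 5 lowest log2 fold changes in each subunit, the 5 highest levels per transcript length, the *Mrps18* paralogs, *Mrpl12*, members below the filter, *Inmt* and the 3 largest absolute changes in each related list. Coordinates, transcript lengths, shared 100-base words and exon overlaps came from GENCODE M21 (GRCm38, the build of mm10). Lengths of the members were set beside those of the 9941 compared genes with a coding sequence. Promoters came from RefSeq.

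Alternatives were pseudocounts of 0.1 and 10, equal totals, a median ratio of 1 (taken over genes reaching 100 in each library), DESeq2 and TMM factors, no filter, a filter of 50, correction in 10 by 10 bins of GC content and length, and leaving out genes that share at least 20% of their words. Equal totals outside the mitochondrially encoded mRNAs were added after the data were seen.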

Additional observations from a re-analysis of the deposited data

How the results depend on the processing

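No paired analysis was possible because each group holds 1 library, and no replicate could be left out. Depth was not the main limit, since every compared member had at least 451 reads, whereas the spread between animals is unknown. Equal totals turned the family median to −0.067, against −0.083 for the large subunit, −0.067 for the small subunit, −0.084 for genes with a bacterial counterpart and −0.071 for mitochondria-specific genes, and put *Mrpl20* at −0.0092 and *Mrpl42* at −0.0052. With a median ratio of 1 these 5 medians were 0.058, 0.043, 0.058, 0.042 and 0.055, and with equal totals outside the mitochondrially encoded mRNAs 0.028, 0.013, 0.028, 0.012 and 0.025. A filter of 50 left 15 members. The small subunit median of 0.35 was then the value of *Mrps7*, and the only other small subunit genes left were *Mrps21* at 0.40 and *Mrps6* at −0.03. Every scaling moves all genes together, and the difference between the medians of the Mrp genes and of all compared genes, 0.18, ranged from 0.13 to 0.20 over the alternatives.

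The count of Mrp genes at least 2-fold lower was 0 with a pseudocount of 10, 2 with equal totals and 0 without genes sharing words, since *Mrpl33* is among the latter. The count at least 1.5-fold higher was 2 with a pseudocount of 10, 0 with equal totals, 1 with a median ratio of 1, 3 with a filter of 50, 0 with equal totals outside the mitochondrially encoded mRNAs and 3 with the correction for GC content and length. The count at least 1.5-fold lower was 3 with equal totals, with a median ratio of 1 and with equal totals outside the mitochondrially encoded mRNAs. It was 1 with a filter of 50 and 0 without genes sharing words. Over all genes, those at least 2-fold higher numbered 372 with a pseudocount of 10, 359 with equal totals and 374 with a filter of 50, and those at least 2-fold lower 408, 1141 and 295, and 1150 without a filter. Of 24 named Mrp genes compared, 21 had 1 direction in every alternative. Most were named for the size of their log2 fold change, so this count is no test of direction. Over all 78 members, 64 were higher and 14 lower under the deposited scaling, against 28 and 50 with equal totals.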
